A study of Mus musculus with 12 samples.

Results

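The genes described here are the mouse Zfp genes, named for their zinc fingers, that were detected in the left ventricle. The members were chosen by symbol and by level: the symbol was Zfp followed by digits only, Zfp36 was left out, and the FPKM (fragments per kilobase of transcript, scaled to the size of the library) had to reach 1 in 3 or more of 12 libraries. Of the 17052 genes in the table, 217 met this rule, while 131 further genes with such a symbol stayed below the FPKM limit. The rule used the FPKM values, so the levels of the members are a description.

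The 12 libraries came from the left ventricles of 12 C57BL/6 mice, 3 in each of 4 groups, and every mouse was operated on at 8 weeks of age and sampled at 12 weeks. Sham+control mice had an operation without ligation, and TAC+control mice had transverse aortic constriction, in which the aortic arch is narrowed with a clip so that the left ventricle pumps against a higher pressure. Sham+pimobendan and TAC+pimobendan mice had the same operations and received pimobendan by mouth at 1 mg/kg per day for 4 weeks. Pimobendan is a calcium sensitiser and phosphodiesterase 3 inhibitor used in heart failure. The labels give no transgene, and they do not say what the control mice received by mouth. The libraries were made from whole ventricle tissue, so fewer cells of a type and less RNA per cell cannot be told apart.

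A classical zinc finger is a short fold in which 2 cysteines and 2 histidines hold a zinc ion, and fingers in a row read DNA. In many mammalian zinc finger proteins a KRAB box precedes the fingers. This box recruits Trim28, which in turn brings the histone methyltransferase Setdb1 and silences the bound DNA, often a retroelement. Other Zfp proteins carry no such box and act as activators, RNA-binding proteins, ubiquitin or SUMO ligases or spindle proteins. The name Zfp therefore groups genes by a fold and not by 1 function.

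The repeated unit that gives the family its name was visible in the coding sequences. A finger followed by the usual linker was found in 160 members. The 6 windows below are 78 bases each, from the first cysteine codon of a finger to the end of the linker, 5′ to 3′, with the bases that encode the linker in capitals. They were taken from GENCODE M21 coding sequences (GRCm38). The first 4 belong to members described below as higher in TAC+pimobendan, and the last 2 belong to abundant members of high GC content (the share of G and C bases).
Zfp445: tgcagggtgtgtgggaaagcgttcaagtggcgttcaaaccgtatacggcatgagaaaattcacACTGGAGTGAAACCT
Zfp62: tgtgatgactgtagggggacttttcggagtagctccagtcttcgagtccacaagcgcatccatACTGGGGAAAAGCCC
Zfp612: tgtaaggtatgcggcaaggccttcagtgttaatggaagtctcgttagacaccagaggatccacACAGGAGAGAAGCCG
Zfp260: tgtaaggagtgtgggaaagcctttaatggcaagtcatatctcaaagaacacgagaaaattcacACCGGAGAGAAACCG
Zfp768: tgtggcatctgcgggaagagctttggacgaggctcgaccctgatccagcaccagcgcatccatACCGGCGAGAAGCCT
Zfp358: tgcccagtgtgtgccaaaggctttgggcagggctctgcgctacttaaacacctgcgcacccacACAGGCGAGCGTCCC
The GC content was 48.7%, 53.8%, 51.3% and 43.6% in the first 4 windows, and 61.5% and 62.8% in the last 2. Over the whole transcripts it was 43.3% for Zfp445, 38.8% for Zfp62, 44.5% for Zfp612 and 41.7% for Zfp260. It was 59.7% for Zfp768 and 57.0% for Zfp358. Zfp62 had the largest gap between window and transcript.

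Read depth was not given in the table. The summed FPKM of 6 cardiomyocyte markers (Myh6, Tnnt2, Tnni3, Actc1, Pln and Myl2) lay between 50163 and 62934 in every library, and 6 T and B cell markers together reached at most 1.99 FPKM. The libraries differed in how log2(FPKM + 1) followed GC content over 11339 genes. Spearman's rho between GC content and how far a library departed from the 12-library mean was -0.21, -0.52 and -0.54 in the 3 TAC+pimobendan libraries and 0.13, 0.023 and 0.29 for TAC+control. It was 0.14, 0.36 and 0.55 in Sham+pimobendan, and -0.36, 0.089 and 0.47 in Sham+control. TAC+pimobendan replicates 2 and 3 therefore stood lowest, and the groups TAC+pimobendan and TAC+control did not overlap in this measure. For each comparison below, the members' median is also given after a correction for this trend, as are the fold changes of the genes described most fully.

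Most members were present at low levels. The median of the members' mean FPKM was 2.82, against 8.83 over the 11415 genes that met the same FPKM limit, while 74 members averaged under 2 FPKM and 23 averaged over 10. In all 12 libraries 159 members reached 1 FPKM, and no member was listed at 0 in any library. Together the members made up 0.162% to 0.222% of the summed FPKM of a library. This share was highest in the 3 TAC+pimobendan libraries, at 0.193%, 0.210% and 0.222%, although Sham+control replicate 1, at 0.192%, came close to the lowest of them.

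Zfp106, an RNA-binding protein needed by motor neurons and muscle, had the highest level of all members, at 88.5 FPKM on average. Sham+control mice had 100.1, 85.8 and 78.3 FPKM, and Sham+pimobendan mice had 89.3, 78.2 and 71.7 FPKM. TAC+control mice had 75.5, 94.4 and 74.8 FPKM, and TAC+pimobendan mice had 101.5, 95.1 and 117.9 FPKM. The TAC+pimobendan libraries lay above TAC+control, but with an adjusted p of 0.096 the difference did not pass the threshold of 0.05. Next in order were Zfp651 at 38.0 FPKM, Zfp207 at 36.8, Zfp706 at 34.7 and Zfp91 at 28.8, with Zfp768 at 28.4 and Zfp358 at 27.4 close behind. Zfp651 ranged from 32.9 to 42.5 FPKM over the libraries, Zfp207 from 29.0 to 43.0 and Zfp706 from 30.8 to 38.0, so these neighbours in the order did not differ beyond their spread. Zfp207 is a kinetochore and spindle protein. Zfp91, a ubiquitin ligase of the non-canonical NF-kB pathway, ranged from 24.8 to 32.3 FPKM, and Zfp358 from 24.5 to 29.9. No difference in any comparison passed the test for these 5 most abundant members, and the smallest adjusted p among them was 0.061, for Zfp207 in TAC+pimobendan minus Sham+pimobendan.

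**Figure D1:**
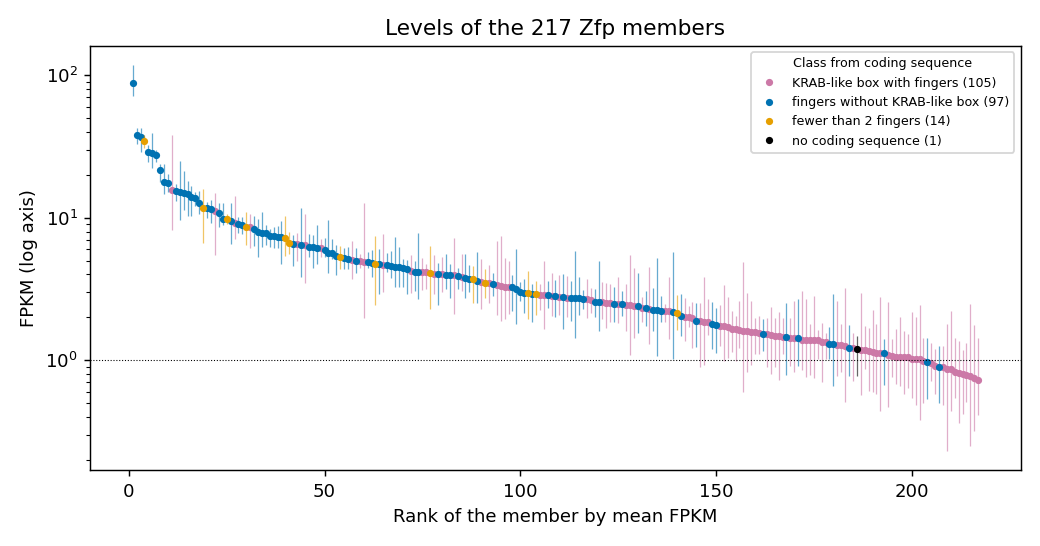
FPKM of the 217 members in order of their mean over 12 libraries, on a log axis. Points are means, vertical lines run from the lowest to the highest library, colours give the class read from the coding sequence, and the dotted line marks 1 FPKM. Zfp106 stands at 88.5 FPKM, and the members with a KRAB-like box crowd the lower end, with a median of 1.64 FPKM.

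Read from the coding sequences, 105 members had a KRAB-like box and 2 or more fingers, and 97 had 2 or more fingers without it. Another 14 had fewer than 2 fingers and 1, Zfp939, had no coding sequence. Members with the KRAB-like box had a median of 11 fingers, a median level of 1.64 FPKM and a median GC content of 43.6%. Those without it had a median of 7 fingers, a level of 4.49 FPKM and a GC content of 51.2%. At least 10 fingers were found in 103 members, and the highest number was 30. The box was called by a sequence pattern in 74 members and by the pattern or a profile in 106, so the class depends on this choice. The profile was built from pattern matches among all proteins with 2 or more fingers, members or not.

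The members were clustered in the genome. Chromosome 7 held 58 of them (26.7%, against 7.60% of all genes tested), chromosome 17 held 20 and chromosome 8 held 18. Another member lay within 100 kb of 88 members. The median GC content of the transcripts was 47.1% for the members and 50.5% for all genes tested, and 35.9% of the members had a GC content of at most 44%, against 17.0% of all genes tested. Over 50% of the coding sequence of 8 members had a copy of at least 95% identity in another gene (Zfp429, Zfp960, Zfp966, Zfp967, Zfp970, Zfp971, Zfp991 and Zfp992), and their values are uncertain for that reason.

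The FPKM limit let in members by different libraries. Just inside it were Zfp960, Zfp758, Zfp719 and Zfp689, whose third-highest library stood at 1.02 to 1.05 FPKM. Just outside were Zfp982, Zfp560, Zfp113 and Zfp423 at 0.98 to 0.99 FPKM. Of the 217 members, 198 reached the limit without the TAC+pimobendan libraries and 19 only with them. Passing the limit only with those libraries favours members that are higher in TAC+pimobendan, so counts are given below also for the 198. Zfp57, which guards imprinted genes, stayed below the limit at 0.27 to 1.05 FPKM, and so did Zfp418, at 0.19 to 0.63 FPKM.

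The first comparison asked about pressure overload without the drug, TAC+control minus Sham+control. No member changed by limma's moderated test with Benjamini-Hochberg adjustment over all 11415 genes, where 0% of all genes were called as higher and 0% as lower. At an unadjusted p under 0.05, 5 members were higher and 14 lower. Here and in the comparisons below, the share of all genes at an unadjusted p under 0.05 is not given. Those counts therefore describe the members and do not set them apart from other genes. The median log2 fold change of the members was -0.055, beside -0.057 over all genes tested, and -0.0022 after GC correction. For the KRAB-like members the median was -0.026 before and 0.051 after GC correction, so its sign turned.

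Zfp768, Zfp46 and Zfp217 had the smallest p-values there. Zfp768 had 24.2, 22.4 and 26.1 FPKM in Sham+control mice against 39.4, 32.3 and 31.8 in TAC+control mice, a log2 fold change of 0.49 ± 0.10 (SE) at an adjusted p of 0.38. The groups did not overlap, and the values under pimobendan were 27.3, 26.9 and 31.4 in Sham and 27.6, 24.3 and 27.6 in TAC. Zfp46, a KRAB-like member, had 11.6, 14.5 and 13.4 FPKM in Sham+control mice against 5.50, 6.51 and 9.36 in TAC+control mice, a log2 fold change of -0.83 ± 0.18 (SE) at an adjusted p of 0.38. All 3 TAC+control libraries lay under every library of the other groups, of which the lowest, in Sham+pimobendan, was 9.51 FPKM. Zfp217, a member of repressor complexes that is amplified in breast cancer, had 3.02, 3.17 and 3.21 FPKM in Sham+control mice against 1.85, 2.35 and 2.25 in TAC+control mice. Its log2 fold change was -0.40 ± 0.098 (SE) at an adjusted p of 0.41, and again the groups did not overlap. After GC correction the log2 fold changes were 0.52 for Zfp768, -0.77 for Zfp46 and -0.34 for Zfp217.

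Zfp799 had the highest log2 fold change of the members in this comparison, 0.73, and was picked out after its values were seen. Its FPKM was 2.76, 2.55 and 2.43 in Sham+control mice against 2.02, 7.16 and 7.39 in TAC+control mice. It was high in only 2 of the 3 TAC+control mice, whereas no other library exceeded 3.38 FPKM. The adjusted p was 0.56, and it was called as higher when TAC+control replicate 1 was left out.

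The next comparison asked what pimobendan changed in the loaded ventricle, TAC+pimobendan minus TAC+control. In the fit of all 12 libraries, 15 of the 217 members rose and none fell, that is 6.91% of the members against 3.15% of all genes tested that rose (360 genes) and 0.114% that fell (13 genes). Among the 198 members that reached the limit without TAC+pimobendan, 12 rose. The risen members had log2 fold changes of 0.44 to 1.03 and adjusted p-values of 0.041 to 0.049, all close to the threshold. The median log2 fold change was 0.22 over the members, 173 of which were above 0, and 0.095 over all genes tested. At an unadjusted p under 0.05, 79 members were higher and 4 lower.

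These calls depended on how the libraries were compared. With the GC trend of each library removed, none of the 15 was called (smallest adjusted p 0.11), beside 0% of all genes tested. All 15 kept a log2 fold change above 0, at 0.17 to 0.70, and the members' median was 0.052. With the replicate number as a block, 0 members were called in the fit of all libraries, beside 0.00876% of all genes tested. In a fit of the 2 TAC groups with that block, 6 were called (2.76%, beside 2.89% of all genes tested), 4 of them among the 15. With TPM in place of FPKM, 33 members rose beside 9.57% of all genes tested. With a mean of at least 1 FPKM as the filter, 15 of 202 members rose beside 3.59% of all genes tested. Leaving out TAC+pimobendan replicate 1 raised the count to 53 risen members, and the share of all genes tested that rose to 9.6%. The count was 0 without TAC+pimobendan replicate 2 or 3, TAC+control replicate 1 or 3, Sham+control replicate 2 or Sham+pimobendan replicate 2. There at most 0.0175% of all genes tested rose. It was 5 without Sham+control replicate 3 (beside 1.7% of all genes tested) and 3 without Sham+pimobendan replicate 1 (beside 1.31%).

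Zfp62, a protein of 25 fingers without a KRAB-like box, had the highest fold change in this comparison. Its FPKM was 1.25, 2.08 and 1.23 in TAC+control mice against 2.10, 5.39 and 5.70 in TAC+pimobendan mice, a log2 fold change of 1.03 ± 0.26 (SE) at an adjusted p of 0.049. The groups were separated by a margin of 2.08 to 2.10 only, because TAC+pimobendan replicate 1 stood far below the other 2. After GC correction the log2 fold change was 0.62 with an adjusted p of 0.13. In the sham groups it had 1.98, 1.70 and 1.08 FPKM without and 1.47, 1.18 and 1.02 with pimobendan.

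Zfp612, a KRAB-like member with 16 fingers, had 1.64, 1.77 and 1.44 FPKM in TAC+control mice against 2.80, 4.50 and 3.73 in TAC+pimobendan mice. The log2 fold change was 0.82 ± 0.16 (SE) at an adjusted p of 0.041, and 0.60 with an adjusted p of 0.11 after GC correction. All 3 TAC+pimobendan libraries exceeded all 9 others, of which the highest was 2.40 FPKM. Zfp715, with a KRAB-like box and 18 fingers, had 2.85, 3.97 and 2.11 FPKM in TAC+control mice against 4.37, 6.73 and 7.23 in TAC+pimobendan mice, a log2 fold change of 0.84 ± 0.18 (SE) at an adjusted p of 0.041. Zfp810, also KRAB-like, had 1.01, 1.33 and 0.95 FPKM against 2.12, 2.94 and 2.60, a log2 fold change of 0.76 ± 0.15 (SE) at an adjusted p of 0.041. In neither did the TAC+pimobendan values meet those of another group. GC correction left log2 fold changes of 0.47 for Zfp715 and 0.52 for Zfp810.

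Zfp488, a regulator of oligodendrocyte differentiation that was present in these ventricles at 15.1 FPKM on average, had 9.61, 15.3 and 11.4 FPKM in TAC+control. It had 17.8, 25.2 and 23.3 FPKM in TAC+pimobendan, a log2 fold change of 0.82 ± 0.17 (SE) at an adjusted p of 0.041. It had the highest GC-corrected fold change of the 15, 0.70. Its GC content of 48.2% was above the members' median, and only Zfp217, at 51.7%, was higher among the 15.

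Zfp217 had 1.85, 2.35 and 2.25 FPKM in TAC+control mice against 3.25, 3.14 and 3.41 in TAC+pimobendan mice, a log2 fold change of 0.44 ± 0.098 (SE) at an adjusted p of 0.043. The TAC+pimobendan values lay beside those of Sham+control (3.02 to 3.21 FPKM) and Sham+pimobendan (3.10 to 3.36 FPKM), and TAC+control alone was low. Its pattern was thus unlike that of Zfp62 or Zfp612, where TAC+pimobendan alone was high, and its GC-corrected fold change of 0.39 was close to the uncorrected one.

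The other named risen members were KRAB-like except Zfp654 and Zfp451. Zfp788, Zfp943 and Zfp52 had log2 fold changes of 0.76, 0.75 and 0.74. Zfp654, Zfp189, Zfp451 and Zfp39 had 0.65, 0.61, 0.53 and 0.51. Zfp451, a SUMO ligase, had 2.08, 2.06 and 2.16 FPKM in TAC+control mice against 2.92, 3.72 and 3.86 in TAC+pimobendan mice. After GC correction, Zfp451 had a log2 fold change of 0.19 and Zfp654 one of 0.18, among the lowest of the named calls. Zfp667, whose rat counterpart was found as a gene raised by ischaemic preconditioning of the heart, was singled out after its values were seen. It had 0.71, 0.54 and 0.60 FPKM in TAC+control mice against 1.42, 1.17 and 1.27 in TAC+pimobendan mice, a log2 fold change of 0.50 ± 0.12 (SE) at an adjusted p of 0.046. Outside TAC+pimobendan it reached 1 FPKM in 1 library only, so it was among the 19 members that met the limit only with the TAC+pimobendan libraries.

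**Figure D2:**
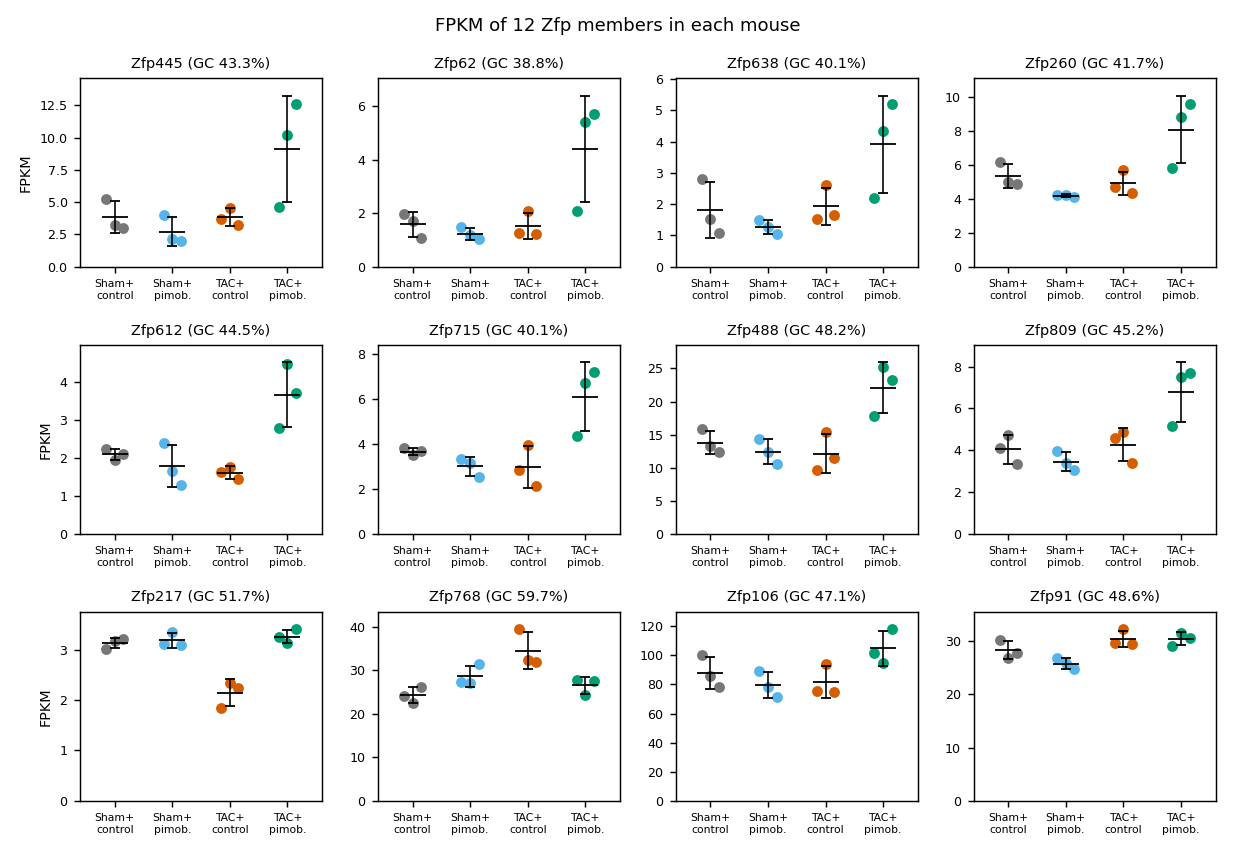
FPKM of 12 members in each of the 12 mice, with the mean and SD (n = 3 per group), on axes that start at 0; "pimob." is pimobendan, and the GC content of the transcript is given with each name. Zfp445, Zfp62, Zfp638 and Zfp260 are high in TAC+pimobendan with replicate 1 the lowest of the 3, whereas Zfp217 is low in TAC+control and Zfp768 and Zfp91 do not follow this pattern.

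Pressure overload under the drug was the question of TAC+pimobendan minus Sham+pimobendan, which shares its TAC+pimobendan libraries with the comparison before. Here 32 members rose and none fell, 14.7% of the members against 4.64% of all genes tested that rose (530 genes) and 0.245% that fell (28 genes). Of the 198 members that reached the limit without TAC+pimobendan, 22 rose, and of the 19 others 10 rose. The risen members had log2 fold changes of 0.45 to 1.40 and adjusted p-values of 0.031 to 0.050. The median log2 fold change was 0.16 over the members and -0.0061 over all genes tested. After GC correction none of the 32 was called (smallest adjusted p 0.11), beside 0% of all genes tested. All 32 stayed above 0 at 0.085 to 1.13, and the members' median was 0.076. With the replicate block, or with only the 2 groups in the fit, 0 members were called, again beside 0% of all genes tested. With TPM 42 rose beside 6.23% of all genes tested. The count was 59 without TAC+pimobendan replicate 1, beside 9.55% of all genes tested. It was 0 without either of that group's other replicates or without Sham+pimobendan replicate 2 or 3, where 0% of all genes tested rose. It was 18 without Sham+control replicate 2 (beside 2.63% of all genes tested) or TAC+control replicate 1 (beside 3%). Without Sham+pimobendan replicate 1 it was 19, beside 2.51%.

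Zfp445, a KRAB zinc finger protein that keeps genomic imprints, had the highest fold change of all members. Its FPKM was 4.00, 2.16 and 1.96 in Sham+pimobendan mice against 4.61, 10.2 and 12.6 in TAC+pimobendan mice, a log2 fold change of 1.40 ± 0.30 (SE) at an adjusted p of 0.031. Replicate 1 of TAC+pimobendan, at 4.61 FPKM, lay below Sham+control replicate 1, at 5.27, and near TAC+control replicate 2, at 4.58. Against TAC+control (3.71, 4.58 and 3.25 FPKM) the log2 fold change was 0.98 ± 0.30 (SE), with an adjusted p of 0.069. Its GC-corrected fold change against Sham+pimobendan, 1.13, was the highest of the 32, with an adjusted p of 0.11.

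Zfp638, a nuclear RNA-binding protein that promotes adipocyte differentiation and silences unintegrated retroviral DNA, had 1.49, 1.27 and 1.06 FPKM in Sham+pimobendan. It had 2.19, 4.35 and 5.21 FPKM in TAC+pimobendan, a log2 fold change of 1.06 ± 0.26 (SE) at an adjusted p of 0.039. Sham+control replicate 1, at 2.82 FPKM, and TAC+control replicate 2, at 2.61, lay above the lowest TAC+pimobendan library. Zfp62 had a log2 fold change of 1.20 ± 0.26 (SE) here, at an adjusted p of 0.031. The GC-corrected values were 0.66 for Zfp638 and 0.74 for Zfp62.

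Zfp260, described in heart muscle cells as an effector of alpha1-adrenergic signalling that acts with Gata4, had 4.24, 4.25 and 4.11 FPKM in Sham+pimobendan. In TAC+pimobendan it had 5.83, 8.83 and 9.63 FPKM, a log2 fold change of 0.78 ± 0.16 (SE) at an adjusted p of 0.031, and 0.44 after GC correction. It had 4.72, 5.69 and 4.34 FPKM in TAC+control, and against these the log2 fold change of 0.60 ± 0.16 (SE) missed the threshold at an adjusted p of 0.051. Sham+control, at 6.17, 4.99 and 4.87 FPKM, overlapped TAC+pimobendan through replicate 1 of each group. Nppa, a natriuretic peptide gene that Zfp260 is known to act on, had an adjusted p of 0.77 in the comparison with Sham+pimobendan and 0.10 in that with TAC+control.

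Zfp809, a KRAB zinc finger protein that silences murine leukaemia virus sequences, had 3.94, 3.40 and 3.03 FPKM in Sham+pimobendan mice against 5.15, 7.52 and 7.68 in TAC+pimobendan mice. The log2 fold change was 0.79 ± 0.16 (SE) at an adjusted p of 0.031. All 3 TAC+pimobendan libraries exceeded the other 9, of which the highest was 4.85 FPKM in TAC+control. Its GC-corrected fold change was 0.61. Zfp146, a protein made almost only of fingers, had 5.53, 4.48 and 3.86 FPKM against 6.59, 11.7 and 11.2, a log2 fold change of 0.92 ± 0.22 (SE) at an adjusted p of 0.040. Its lowest TAC+pimobendan library lay inside the ranges of Sham+control (4.60 to 7.59 FPKM) and TAC+control (4.26 to 6.83 FPKM). After GC correction its fold change was 0.88, nearly that before, and its transcript has a GC content of 48.8%.

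Among the remaining named members that rose here, Zfp397, Zfp51, Zfp960, Zfp386, Zfp770, Zfp943, Zfp788 and Zfp617 had log2 fold changes of 0.82 to 0.98. Zfp51 was the exception in overlap, with 1.25 FPKM in TAC+pimobendan replicate 1 and 1.46 in Sham+pimobendan replicate 1. The call for Zfp960 is uncertain, since its coding sequence has a near-identical copy in Zfp97. Outside TAC+pimobendan, Zfp960 reached 1 FPKM only in TAC+control replicate 2, at 1.02. It was thus among the 19 members that met the limit only with the TAC+pimobendan libraries.

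The risen members of the 2 comparisons came to 36 genes, 11 of them risen in both, and the shared TAC+pimobendan libraries enter both counts. Risen genes among the 19 members that met the FPKM limit only with TAC+pimobendan libraries are included. Of the 36, 24 had a KRAB-like box with fingers, 12 had fingers without it, and 27 had a GC content of at most 44%. On chromosome 17, 7 of the 36 were found, among them the neighbours Zfp942 (21926960 to 21962503) and Zfp943 (21962559 to 21994366) and the pair Zfp51 (21450374 to 21465591) and Zfp52 (21533725 to 21563362). Zfp809 (22225667 to 22254117) and Zfp810 (22276737 to 22307814) lie side by side on chromosome 9, and Zfp260 (30094782 to 30107622) and Zfp146 (30160487 to 30169775) on chromosome 7. These are gene bounds in GRCm38 from RefSeq. Chromosome 17 held 20 of the members in all. The GC content was 37.4% for Zfp942, 37.1% for Zfp943, 38.5% for Zfp51 and 39.9% for Zfp52, and the part of position in the calls was not tested.

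Several members with known roles passed neither test. Zfp148, which binds GC-rich promoters, had 2.84, 3.29 and 3.17 FPKM in TAC+control mice against 3.61, 4.96 and 5.70 in TAC+pimobendan mice, a log2 fold change of 0.47 at an adjusted p of 0.11. Zfp326, a subunit of a complex that couples splicing to transcription, had 2.30, 3.92 and 3.65 FPKM against 4.01, 5.68 and 6.30, a log2 fold change of 0.56 at an adjusted p of 0.069. In both genes the groups did not overlap. Zfp143, a promoter-bound activator, had a log2 fold change of 0.32 at an adjusted p of 0.14, and Zfp281, a stem cell repressor, 0.24 at 0.27.

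Zfp384, Zfp410 and Zfp568 showed no such difference. Zfp384, a nuclear matrix protein, had 13.8, 13.3 and 15.1 FPKM in TAC+control mice against 14.3, 12.1 and 13.9 in TAC+pimobendan mice. Zfp410, the activator of Chd4, had 12.6, 8.93 and 9.02 FPKM against 9.99, 9.72 and 9.12. For Zfp568, the KRAB repressor of a placental Igf2 transcript, the values were 5.51, 3.57 and 4.58 FPKM against 4.99, 3.92 and 3.93. The groups overlapped in all 3 genes, and the adjusted p-values were 0.72, 0.77 and 0.82.

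Pimobendan without load was examined in Sham+pimobendan minus Sham+control. No member changed by limma's test, where 0% of all genes tested were called in either direction, and at an unadjusted p under 0.05, 2 members were higher and 6 lower. The members' median log2 fold change was -0.041, beside 0.013 over all genes tested, and 77 of the 217 were above 0. After GC correction the median was -0.023. Zfp60, Zfp866 and Zfp143 had the smallest p-values, with log2 fold changes of -0.40, -0.29 and -0.32, all at an adjusted p of 0.91. Zfp143 had 5.38, 4.27 and 3.89 FPKM without and 3.27, 3.58 and 3.30 with the drug, and Zfp60, a KRAB-like member, 2.11, 2.26 and 1.55 against 1.56, 1.31 and 0.90. The groups did not overlap for Zfp143 and overlapped for Zfp60.

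Whether the effect of overload differed between the drug arms was tested as an interaction. None of the members and 0% of all genes tested passed by limma's adjusted p, and at an unadjusted p under 0.05, 65 members were higher and 3 lower. The median interaction was 0.26 over the members, 0.076 after GC correction, and 0.066 over all genes tested before it. Zfp612, Zfp788 and Zfp715 had the smallest p-values, with log2 interactions of 0.99 ± 0.22, 1.07 ± 0.25 and 1.06 ± 0.26 (SE) at an adjusted p of 0.085. Without TAC+pimobendan replicate 1, 36 members passed as higher and 1 as lower, beside 6.47% and 0.307% of all genes tested. In the fit of all libraries, the risen members were thus not shown to respond to overload differently with and without the drug.

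The fold changes followed the GC content of the transcripts. Across the 217 members, Spearman's rho between the log2 fold change and GC content was -0.67 in TAC+pimobendan minus TAC+control and -0.82 in TAC+pimobendan minus Sham+pimobendan. It was 0.45 in Sham+pimobendan minus Sham+control and -0.10 in TAC+control minus Sham+control. Over all genes with a GC content the 4 values were -0.50, -0.64, 0.38 and 0.10. These are correlations across genes of the same libraries, which are not independent replicates.

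The members were set beside other genes of the same range of GC content in TAC+pimobendan minus TAC+control. Up to 44% the shares were close, and from 44% to 52% the members' shares were higher. At a GC content of at most 40%, 5 of 29 members rose (17.2%) beside 16.0% of the other genes, with median log2 fold changes of 0.53 and 0.40. From 40% to 44%, 4 of 49 members rose (8.16%) beside 9.19%, with medians of 0.29 and 0.31. From 44% to 48%, 4 of 32 rose (12.5%) beside 4.23%, and the medians were 0.22 and 0.18. From 48% to 52%, 2 of 42 rose (4.76%) beside 1.41%, with medians of 0.20 and 0.079. Above 52% no member rose.

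Against Sham+pimobendan, the shares of risen members were higher in each range up to 52%. They were 48.3% beside 31.3% up to 40%, 22.4% beside 17.5% from 40% to 44%, 15.6% beside 4.55% from 44% to 48%, and 4.76% beside 0.498% from 48% to 52%. The last of these shares is 2 of 42 members, and whether members and other genes differ within a range was not tested. The shares and medians by GC range include the 19 members that met the FPKM limit only with TAC+pimobendan libraries. Of these 19, 3 rose against TAC+control and 10 against Sham+pimobendan. The shares were not redone for the 198 others, so part of a higher share can come from the limit itself.

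**Figure D3:**
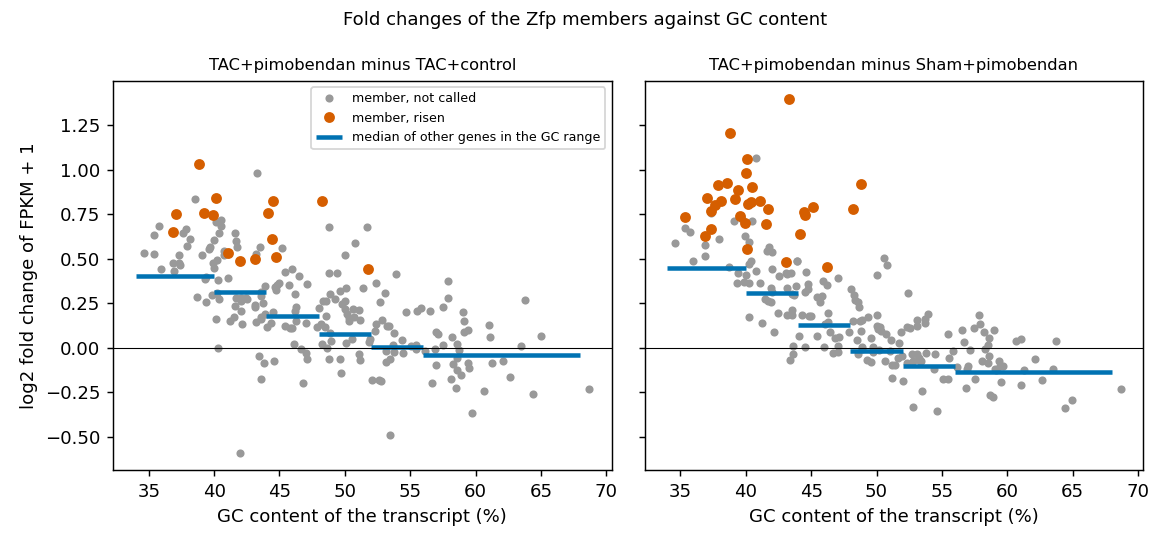
Log2 fold change of FPKM + 1 for each of the 217 members against the GC content of its transcript, for TAC+pimobendan minus TAC+control on the left and minus Sham+pimobendan on the right. Orange points are members that rose in the limma fit, grey points members not called, and blue lines the medians of the other genes tested in each GC range. Members of low GC content lie highest, and the blue lines fall from 0.40 to -0.038 on the left and from 0.45 to -0.14 on the right.

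The KRAB-like class and low GC content went together, so the class was split by GC content. In TAC+pimobendan minus TAC+control, the 55 KRAB-like members with a GC content of at most 44% were at a median of 0.45 (log2), and the 21 members with fingers but no box in that range were at 0.48. Above 44%, the medians were 0.16 for 50 KRAB-like members and 0.060 for 76 without the box. Against Sham+pimobendan, the medians in the low range were 0.54 and 0.55, and above it they were 0.092 and -0.012. The classes were thus close at low GC content, and no test of a class was made. These medians also include the 19 members that met the FPKM limit only with TAC+pimobendan libraries.

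In single libraries, the 78 members with a GC content of at most 44% had median differences from the Sham+control mean of 0.14, 0.47 and 0.57 (log2) in TAC+pimobendan. These were -0.060, 0.13 and -0.14 in TAC+control, -0.042, -0.11 and -0.24 in Sham+pimobendan, and 0.12, -0.054 and -0.071 in Sham+control itself. TAC+pimobendan replicates 2 and 3 stood clear of all other libraries, while replicate 1 was near TAC+control replicate 2 and Sham+control replicate 1. The 65 members with a GC content over 52% lay between -0.067 and 0.11 in every library. After GC correction, the medians of all members were 0.017, 0.073 and 0.096 in TAC+pimobendan and -0.050 to 0.048 in the other 9 libraries.

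**Figure D4:**
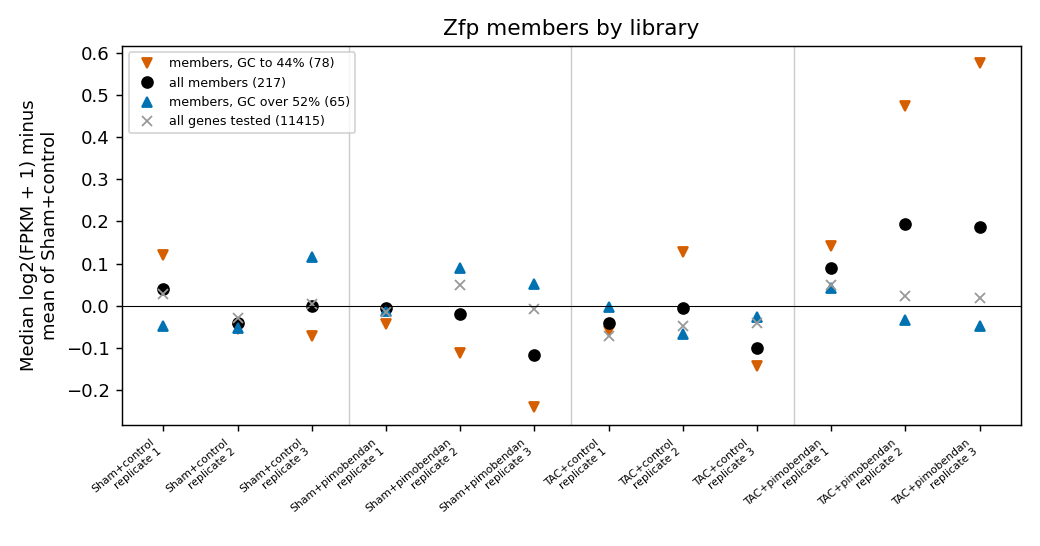
Median log2(FPKM + 1) of each library minus the mean of the 3 Sham+control libraries, for all members, for members of low and of high GC content and for all genes tested. The low-GC members reach 0.47 and 0.57 in TAC+pimobendan replicates 2 and 3 and 0.14 in replicate 1, while the high-GC members stay between -0.067 and 0.11.

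**Figure D5:**
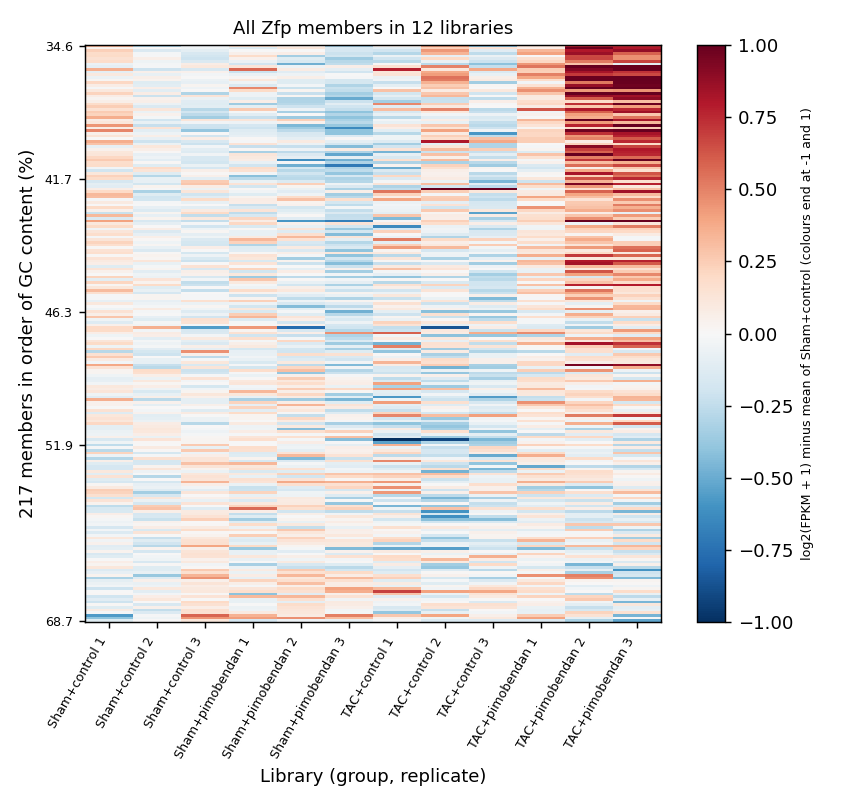
Difference of log2(FPKM + 1) from the Sham+control mean for the 217 members (rows, in order of GC content, lowest at the top) in 12 libraries (columns). The red area of higher values covers the low-GC rows of TAC+pimobendan replicates 2 and 3, and the same rows are pale in replicate 1 and mostly blue in Sham+pimobendan replicate 3.

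Cell type markers also differed between the groups. The summed FPKM of the 6 cardiomyocyte markers was 50922 to 57238 in TAC+pimobendan and 58391 to 62934 in TAC+control, without overlap. It was 52834 to 56351 in Sham+control and 50163 to 56409 in Sham+pimobendan. TAC+control was thus the group that stood apart, and TAC+pimobendan lay with the sham groups. Of these markers, Pln rose and Actc1 fell against TAC+control, and Pln rose against Sham+pimobendan. Pln had a GC content of 38.6% and Actc1 of 52.3%. The sums of 5 skeletal muscle markers (Ckm, Acta1, Myh4, Myh1 and Tnnt3) did not overlap either, at 2160 to 2418 FPKM in TAC+pimobendan and 2756 to 4394 in TAC+control. Only 2 of these 5 met the FPKM limit and neither was called, so the sums are no measure of skeletal muscle content. The summed FPKM of 5 erythroid markers was 882 to 1764 in TAC+pimobendan, 3240 to 5115 in TAC+control, 368 to 1467 in Sham+pimobendan and 1188 to 2336 in Sham+control, none of the 5 being at 0, and 1 of the 5, Alas2, fell in TAC+pimobendan minus TAC+control. Against Sham+pimobendan, 2 of 5 endothelial markers (Pecam1 and Esam) and 1 of 5 smooth muscle markers (Acta2) fell. The endothelial sums were 245 to 292 FPKM in TAC+pimobendan and 283 to 397 in Sham+pimobendan, so they overlapped. The sums of 5 fibroblast markers went the other way without overlap, at 360 to 440 FPKM in TAC+pimobendan and 267 to 333 in Sham+pimobendan. None of those 5 was called. The part of these cells in the members' values was not tested, and the same holds for the GC trend of the libraries.

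The partners through which KRAB boxes act were given by a list of 35 genes, of which 31 were tested. Trim28 had 23.8, 28.2 and 27.6 FPKM in TAC+control mice against 25.6, 24.5 and 23.9 in TAC+pimobendan mice, and Setdb1 had 5.13, 4.34 and 4.62 against 6.03, 4.89 and 5.41. Neither passed in any comparison. In TAC+pimobendan, 3 of the 31 rose against TAC+control and against Sham+pimobendan, and none fell. They were Atrx, a chromatin remodeller, and Fam208a and Mphosph8, subunits of the HUSH silencing complex. Atrx had 1.13, 2.06 and 1.47 FPKM in TAC+control mice against 2.54, 5.21 and 4.80 in TAC+pimobendan mice, a log2 fold change of 1.00 ± 0.21 (SE) at an adjusted p of 0.041. All 3 had a low GC content, 39.5% for Atrx, 38.9% for Fam208a and 42.6% for Mphosph8. The list's median was 0.18 in TAC+pimobendan minus TAC+control and 0.092 against Sham+pimobendan, beside 0.095 and -0.0061 over all genes tested.

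Genes of other zinc finger families were counted in the same way. Of the Zbtb, Zkscan and Zscan genes, 54 were tested and 0 were called by limma's adjusted p in either comparison of TAC+pimobendan, with 15 and 16 at an unadjusted p under 0.05. Their medians were 0.17 and 0.076. Of 15 tested Zfp genes with letters after the number, or Zfp36, 1 rose against TAC+control (Zfp36l2) and 2 against Sham+pimobendan (Zfp280d and Zfp322a). Of all genes tested, 3.15% and 4.64% rose in these comparisons. Zfp36l2, an mRNA decay factor, had 7.96, 10.5 and 11.4 FPKM in TAC+control mice against 16.1, 16.8 and 17.8 in TAC+pimobendan mice, beside 14.1 to 16.5 in Sham+control. Whether these families differ from the members was not tested.

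Promoters from 250 bases before to 50 after the start were at hand for 175 members, 30 of them among the 36 that rose (RefSeq, GRCm38.p6). Both strands were searched for 2 motifs, counting each promoter once. The cyclic AMP response element TGACGTCA was in 2.29% of the members' promoters, in none of the 30 and in 3.23% of the promoters of all genes tested. The ETS motif CCGGAAGT was in 10.9% of the members' promoters, in 2 of the 30 and in 8.64% of all. The median GC content of the promoters was 56.7% for the members, 54.3% for the 30 and 61.3% for all genes tested.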

How the data were processed

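Per the submitters' processing notes, reads were handled with HISAT2 2.0.4, Bowtie2 2.2.5, RSEM 1.2.12 and DESeq2 1.4.5 on GRCm38. The authors deposited FPKM and TPM per gene and library. The deposited FPKM values were tested as log2(FPKM + 1), which understates changes of low genes, and the deposited TPM values were an alternative. Read counts were not used here, and read depth is not given in the sources used here. Gene counting by strand is also not given, so overlapping genes cannot be told apart.

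For 11415 genes with FPKM of at least 1 in 3 or more libraries, limma 3.58.1 (R 4.3.3, trend) fitted 4 group means over 12 libraries (8 residual degrees of freedom), with Benjamini-Hochberg adjustment over all and a threshold of 0.05. Library scaling was left as deposited, and the median of all genes shifted by over 0.1 between scalings (TAC+pimobendan minus TAC+control: 0.095 for FPKM, 0.17 for TPM, -0.0058 after median-ratio scaling). The alternatives in the closing section changed 1 choice each, except the replicate block with GC correction and the replicate block in a fit of only the groups compared, which changed 2. GC correction removed a lowess trend (span 0.3) of each library against transcript GC content. Fingers and KRAB-like boxes were counted in translated GENCODE M21 coding sequences, with a pattern and a HMMER 3.4 profile (E-value 0.001), and copies were found with BLAST 2.17.0. The fit was tested on simulated data, in which genes varied independently and no library had a GC trend. That test checks the code and cannot say whether the calls in these libraries hold.

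The same-numbered TAC+control and TAC+pimobendan libraries deviated together weakly (correlations of 0.10 to 0.21), and libraries of unlike number from these groups were at -0.17 to 0.028. Between the sham groups, a pair of unlike number reached 0.43. The fit of 4 group means therefore took the libraries as unpaired, and the replicate number entered only as a block in alternative fits. Of all 18 same-numbered pairs of libraries, 4 were over 0.1 and the lowest was -0.44. The labels do not say what a number shares.

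The members and all lists were chosen with earlier results of these data known. The genes named were, per comparison, up to 12 called members with the largest change in each direction, or the 3 with the smallest p where none was called, the 5 most abundant members, and 19 genes with known roles, 16 of which were members. The nuclear-retained RNAs on a further list were not analysed here. Markers of atrial muscle, fibroblasts, macrophages, skeletal muscle, adipocytes and thymus had 0 calls or were too low to test.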

Additional observations from a re-analysis of the deposited data

How the results depend on the processing

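The members' calls sat close to the threshold, and their number changed with most alternatives. The replicate block, another filter, a fit of only the 2 groups and the loss of a library from another group cannot change a fold change. Where it could change, the median log2 fold change of the 15 members called against TAC+control moved from 0.74. It was 0.37 with GC correction, 0.53 with quantile normalization, 0.67 with median-ratio scaling, 0.92 with TPM and 1.01 with a pseudocount of 0.1. No called value changed sign, while the uncalled median of TAC+control minus Sham+control did with quantile normalization. In TAC+pimobendan minus TAC+control, 15 members had risen. The count was 0, beside 0% of all genes tested, with GC correction, median-ratio scaling, quantile normalization and no filter on low values. It was also 0 with a fit of only the 2 groups, the replicate block, and the replicate block with GC correction, beside at most 0.00876%. It was 33 with TPM (beside 9.57% of all genes tested) and 9 with a pseudocount of 0.1 (beside 2.32%). Among the 109 members with at least 2 FPKM in all libraries it was 4. All genes tested, not held to that limit, had a share of 3.15%. The median log2 fold change of 0.22 became 0.052 with GC correction, with or without the block, 0.30 with TPM, 0.12 with median-ratio scaling, 0.020 with quantile normalization, 0.29 with the pseudocount of 0.1 and 0.099 under the limit of 2 FPKM. Leaving out 1 library gave 0 to 53 risen and 0 to 1 fallen members, beside 0% to 9.6% and 0% to 0.823% of all genes tested.

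In TAC+pimobendan minus Sham+pimobendan, 32 had risen. The count was 0, beside 0% of all genes tested, with GC correction, no filter, a fit of only the 2 groups, and the replicate block with or without GC correction. It was 20 with median-ratio scaling (beside 2.83% of all genes tested) and 12 with quantile normalization (beside 2.4%). Among the 109 members under the limit of 2 FPKM it was 7. All genes tested, not held to that limit, had a share of 4.64%. The median of 0.16 became 0.076 with GC correction, with or without the block, 0.22 with TPM, 0.24 with the pseudocount of 0.1, 0.078 with quantile normalization and 0.047 under the limit of 2 FPKM. Leaving out 1 library gave 0 to 59 risen members, beside 0% to 9.55% of all genes tested.

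In TAC+control minus Sham+control, the median of -0.055 became -0.0012 with median-ratio scaling and 0.053 with quantile normalization, and leaving out 1 library gave 0 to 1 risen members. The median interaction of 0.26 became 0.076 with GC correction, with or without the block, 0.37 with TPM, 0.18 with median-ratio scaling, 0.36 with the pseudocount of 0.1, 0.075 with quantile normalization and 0.10 under the limit of 2 FPKM. Leaving out 1 library gave 0 to 36 risen and 0 to 1 fallen members there, beside 0% to 6.47% and 0% to 0.307% of all genes tested. The cause of these changes was not tested.

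For 2 alternatives chosen after seeing the data, the values were these. A fit of only the groups compared with the replicate block called 6 members as risen against TAC+control and 0 against Sham+pimobendan, and a limit counted outside TAC+pimobendan left 198 members with 12 and 22 risen. Pairing by replicate number ended or kept at 0 every other count. FPKM and TPM keep no read depth, so no counting error can be given, and members near 1 FPKM are the least certain. With 3 mice per group, a call here rests on single libraries.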
